A study of Equus caballus with 68 samples.

Results

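Neutrophil granule and precursor genes were followed in horse bone marrow mononuclear cells (BMNC) before and during culture in joint fluid. The genes were picked by name, with earlier results of these data known. Of 36 symbols, 24 were found in the table of 30371 genes. They fall into primary granule genes (ELANE, MPO, AZU1 and BPI, 4 of the 6 named), precursor genes (CEBPE, GFI1, CEBPD, MS4A3 and SERPINB1, all 5), specific granule genes (LTF, LCN2, OLFM4, CRISP3 and TCN1, 5 of 9), genes of later granules and of the mature cell (MMP25, ARG1, RETN, ALPL, PROK2, MGAM, ANXA3, STEAP4 and PADI4, 9 of 14) and the eosinophil peroxidase gene EPX (1 of 2). PRTN3, CTSG, MMP8, PGLYRP1, CD177, HP, CEACAM1, FPR1, FPR2, CXCR1, MCEMP1 and PRG2 were not matched by symbol and are not analysed here. Of the 24 genes, 23 passed the filter on low values. ARG1, the liver-type arginase, did not, and its highest value in any library was 0.866 GeTMM.

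The study sequenced RNA of BMNC, the low-density nucleated cells of bone marrow separated on a gradient, from 8 healthy Thoroughbred horses (mares and geldings) aged 3 to 9 years. Cells were taken uncultured (0 h, 8 libraries) or after culture in the horse's own cell-depleted synovial fluid, with more of the same stored fluid added along the way. Healthy fluid (SF) came from middle carpal joints, and inflamed fluid (ISF) from radiocarpal joints 8 h after lipopolysaccharide was injected. Each fluid has 7 libraries at 48 h, 8 at 96 h, 8 at 6 d and 7 at 10 d, since Moon has no 48 h culture and Flash no 10 d culture here. All groups are primary, unsorted cells of the same horses with no genetic change. The treatment was given to the donor joint and not to the cells, so any lipopolysaccharide carried over in the fluid and the response of the joint cannot be told apart. Each fluid also came from its own kind of joint, so inflammation and joint of origin cannot be told apart.

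Neutrophils are built in the marrow in steps, and each step fills its own granules. Promyelocytes make the primary (azurophil) granules with their serine proteases and myeloperoxidase. Myelocytes and metamyelocytes make the specific granules with lactoferrin and other iron- and vitamin-binding proteins, and band cells and neutrophils make gelatinase granules, secretory vesicles and surface receptors. Granule transcripts are largely switched off as each step ends, so that in marrow each set marks its own precursor stages. The transcription factors GFI1 and CEBPE act at the passage from promyelocyte to myelocyte, and CEBPD is also induced in activated macrophages.

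Libraries held 15.7 to 35.97 M reads on genes (M, mega; median 22.3 M). The unit, GeTMM, divides reads by gene length and by a scaled library size, so that levels of different genes may be compared, and a single read on a gene of 1 kilobase equalled 0.0337 to 0.0979 GeTMM. At 96 h in ISF the Dealings and Dreamer libraries each resembled the other horse over the 200 genes that best separate the horses, with a correlation of deviations of 0.921 and 0.928 with the other horse and of -0.252 and -0.176 with their own. The other 66 libraries were closest to their own horse. Both libraries belong to 1 group, so an exchange would leave the group mean as it is. It would alter within-horse values, the fits with horse as a block and the fits that leave out Dealings or Dreamer. The SF library of Moon at 6 d had a GeTMM sum of 2.32 M, against 0.818 to 1.46 M elsewhere, and the fewest genes above 0, 12797 against at least 14783.

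In uncultured BMNC, genes of every neutrophil granule class were abundant. The 24 genes together made up 1.87% to 3.06% of the summed GeTMM of a 0 h library, and a median of 0.0303% after 10 d in ISF. LTF, which encodes the iron binder lactoferrin, was highest at 8152 to 15221 GeTMM (median 10095). RETN, encoding resistin, a peptide of neutrophil granules, followed at 3412 to 9853 GeTMM (median 4283), and SERPINB1, the intracellular inhibitor of neutrophil proteases, at 1645 to 3119.6 GeTMM (median 1939). AZU1 (azurocidin, an antimicrobial protein) stood at 669 to 2098 GeTMM (median 1478), ELANE (neutrophil elastase) at 739 to 2303 GeTMM (median 1321), LCN2 (lipocalin, which binds bacterial iron carriers) at 815 to 1424 GeTMM (median 1182) and MPO (myeloperoxidase) at 384 to 1099 GeTMM (median 682). LTF lay above every other gene in all 8 horses. The ranges of AZU1 and ELANE overlapped those of SERPINB1 and LCN2, while every SERPINB1 value lay above every LCN2 value. The lowest medians of the 23 genes were those of ANXA3, 3.83 to 9.00 GeTMM (median 6.93), which encodes an annexin of granule membranes, and EPX, 1.40 to 77.2 GeTMM (median 12.9), which had the widest spread between horses.

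During the first 48 h of culture most of these genes fell, but ELANE, MPO and AZU1 did not pass in either fluid in the fit without a horse term. In ISF 15 of 23 genes fell and none rose, against 52.7% of the 14570 genes tested that passed and 27.4% that fell. In SF 14 fell and 1 rose, against 45.4% that passed and 23.1% that fell. Both comparisons use the same 0 h libraries. The median log2 fold change of the 23 genes was -1.99 in ISF and -2.45 in SF, beside -0.028 and -0.008 over all genes. In bulk RNA, fewer cells of a type and less RNA per cell cannot be told apart. Over the same 48 h the summed level of the macrophage genes CD68, CD163, MRC1, GPNMB and MSR1, all 5 of which rose, went from 165 to 279 GeTMM (median 199) to 5671 to 12946 GeTMM (median 7159) in SF and 4780.3 to 9331 GeTMM (median 6570.4) in ISF. Their part in the fall was not tested.

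All 5 specific granule genes fell in SF and 4 of 5 in ISF. LTF went from the 0 h range above to 127 to 1404 GeTMM (median 624) at 48 h, 76.6 to 1396 (median 546) at 96 h, 32.3 to 2844 (median 611) at 6 d and 0.707 to 1008 (median 124) at 10 d in SF. In ISF LTF was 165 to 765 GeTMM (median 177) at 48 h, 36.7 to 1777 (median 539.9) at 96 h, 0.836 to 1245 (median 76.9) at 6 d and 0.0257 to 16.7 (median 9.53) at 10 d. Every culture at 48 h lay below every 0 h library. The fitted change from 0 to 48 h, on the log2(GeTMM + 1) scale, was -4.20 ± 1.07 (SE) in SF (adjusted p = 8.81e-04) and -5.10 ± 1.07 in ISF (adjusted p = 5.13e-05), lower in 7 of 7 horses in each. LCN2, CRISP3 (a cysteine-rich secreted protein) and TCN1 (the vitamin B12 binder haptocorrin) also fell in both fluids, with log2 fold changes of -2.88, -3.24 and -2.77 in SF and of -2.78, -5.04 and -3.19 in ISF. OLFM4, the olfactomedin of a subset of neutrophils, fell in SF (-2.45, adjusted p = 0.0275), though not without Flash or Ollie (-2.49 to -2.26, adjusted p = 0.0518 to 0.0810), and its value in ISF was -1.99 (adjusted p = 0.0689, 0.0298 with horse as a block). The median horse kept 7.29% of its own 0 h LTF level in SF and 2.07% in ISF.

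Of the primary granule genes, BPI alone passed in the first 48 h in the fit without a horse term. ELANE was 146 to 818 GeTMM (median 629) at 48 h in SF and 230.3 to 1525 GeTMM (median 725) in ISF, and the cultures overlapped the 0 h libraries. Its log2 fold change was -1.33 ± 0.75 in SF (adjusted p = 0.146) and -1.04 ± 0.75 in ISF (adjusted p = 0.249), lower in 6 of 7 horses in each fluid. For MPO the values were -0.85 (adjusted p = 0.319) and -0.16 (adjusted p = 0.862), lower in 6 of 7 and 3 of 7 horses. In ISF at 48 h MPO measured 221 to 1044 GeTMM (median 724), higher than at 0 h in 4 of 7 horses, and the median horse held 129% of its own 0 h level. For AZU1 the changes were -1.02 in SF (adjusted p = 0.287) and -0.42 in ISF (adjusted p = 0.675), lower in 6 of 7 and 4 of 7 horses. At 48 h in SF the median horse kept 43.1% of its 0 h ELANE, 55.5% of its MPO and 48.7% of its AZU1. In ISF it kept 88.4% of its ELANE and 87.1% of its AZU1. BPI, a bactericidal protein that binds endotoxin, dropped from 424 to 651 GeTMM (median 496) to 21.7 to 145 GeTMM (median 56.01) in SF and 10.4 to 180.4 GeTMM (median 46.6) in ISF, with no overlap with 0 h. The change was -3.23 ± 0.95 (adjusted p = 0.00403) and -3.16 ± 0.95 (adjusted p = 0.00407), lower in 7 of 7 horses in each. AZU1, PRTN3 and ELANE lie in a row in the TB-T2T horse assembly of RefSeq, while BPI and MPO lie elsewhere, beside other genes.

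**Figure D1:**
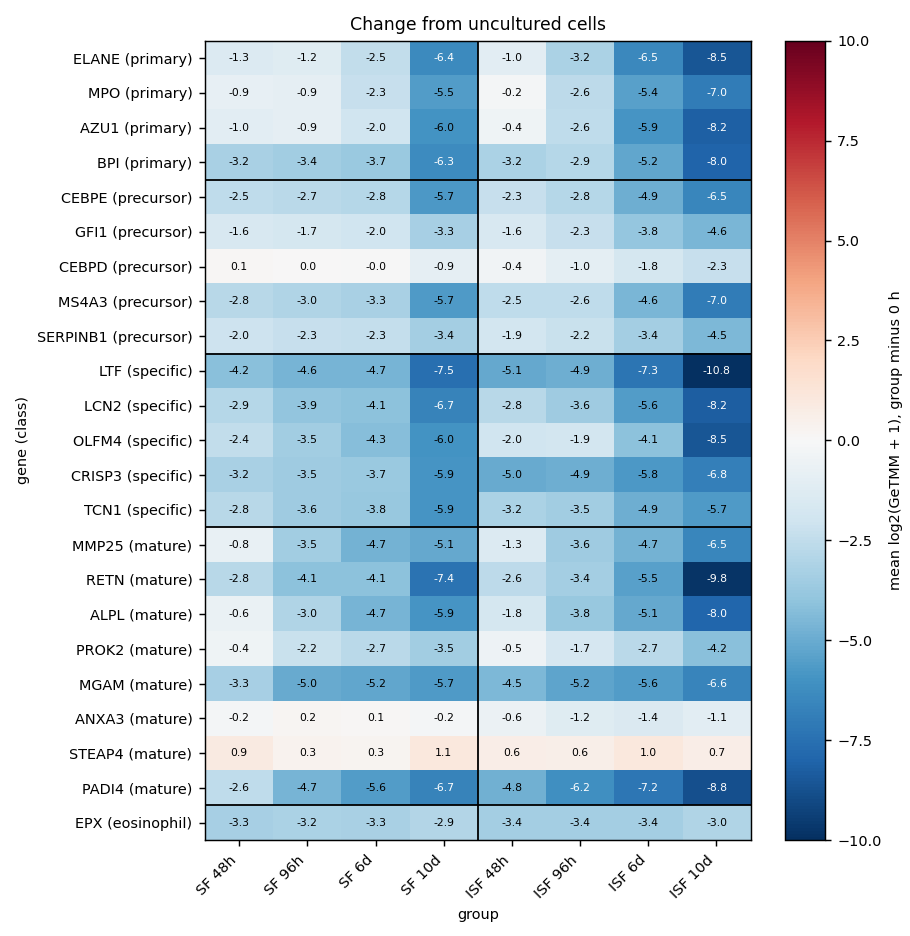
Mean log2(GeTMM + 1) of each culture group minus the mean of the 0 h libraries, for the 23 genes tested (vertical axis, grouped by class) in SF and ISF at 4 times (horizontal axis), with the difference printed in each cell. At 48 h ELANE, MPO and AZU1 are paler than the specific granule genes in the same fluid, of which LTF and CRISP3 are the darkest and OLFM4 the palest. At 6 d ELANE, MPO and AZU1 are darker in ISF than in SF.

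The contrast between early and late granule genes was summarised in each library as the mean log2(GeTMM + 1) of ELANE, MPO, AZU1 and BPI minus the mean of LTF, LCN2, OLFM4, CRISP3 and TCN1. It is a description, with no test. At 0 h this difference was -0.64 to 0.68 (median 0.03), so that the classes had about the same mean level. At 48 h it was 1.21 to 2.65 (median 1.29) in SF and 1.45 to 3.30 (median 2.32) in ISF, above the horse's own 0 h value in 7 of 7 horses in each fluid. In SF it was 1.43 to 2.96 (median 2.12) at 96 h and 0.51 to 2.55 (median 1.49) at 6 d, again above the 0 h value of 8 of 8 horses. In ISF it was -0.64 to 1.77 (median 1.18) at 96 h and -1.44 to 1.25 (median -0.12) at 6 d. ISF thus stood above SF at 48 h in 7 of 7 horses and below SF at 6 d in 8 of 8. The values at 10 d were -0.76 to 3.01 (median -0.07) in SF and -1.21 to 1.13 (median -0.02) in ISF. At that time the mean level of both classes was low, 3.70 and 3.38 log2 units in SF and 1.82 and 1.77 in ISF, against 9.75 and 9.78 at 0 h. The ISF libraries labelled Dealings and Dreamer at 96 h were at -0.64, the lowest, and 1.74. With BPI left out of the primary mean, a choice made after its fall was seen, the medians at 48 h were 2.04 in SF and 3.02 in ISF.

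**Figure D2:**
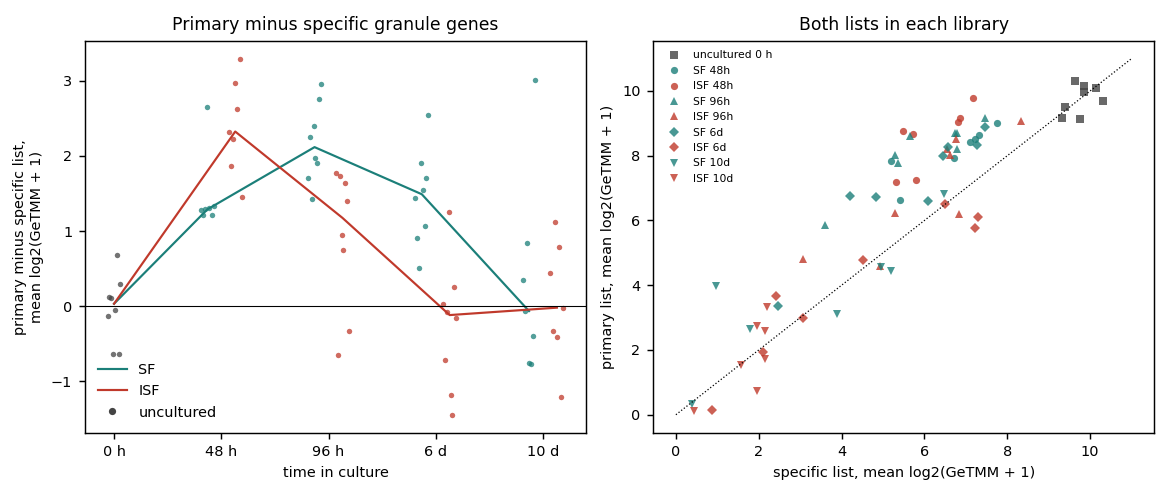
Left, the mean log2(GeTMM + 1) of 4 primary granule genes minus that of 5 specific granule genes in each library (points) over time in culture, with lines joining group medians for SF (green) and ISF (red). Right, both means in each library, with the dotted line marking equal levels. The SF medians stay at 1.29 to 2.12 from 48 h to 6 d, while the ISF median is -0.12 at 6 d.

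The comparison of fluids asks how these marrow cells differ between the inflamed and the healthy joint fluid. Of the 23 genes, 1 was lower in ISF than in SF at 48 h, 3 at 96 h, 11 at 6 d and 11 at 10 d, and none passed in the other direction at any of these times. At an unadjusted p under 0.05, 1 gene was higher at 6 d and 0 at the other times, and voom on recovered reads called 0 higher. Of all genes tested, 1.68% passed at 48 h, 10.5% at 96 h, 30.2% at 6 d and 20.8% at 10 d, and 0.81%, 4.3%, 13.6% and 10.8% were lower in ISF. With horse as a replicate block 3, 7, 12 and 13 genes were lower, beside 2.43%, 7.6%, 16.8% and 14.5% of all genes, and no call was lost. Counts without 1 horse ran from 8 to 11 at 6 d. At 10 d they ran from 4 without Catnip and 6 without Ollie to 12, at 96 h from 2 to 6, the highest without Dealings, and at 48 h the single call was lost without Dreamer. The median difference of the 23 genes was -1.47 at 6 d and -1.38 at 10 d, beside 0.00 and -0.022 over all genes.

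ELANE, AZU1 and MPO had the largest log2 differences of the 23 genes at 6 d. In SF, ELANE was 122 to 1012 GeTMM (median 641) at 96 h, 14.9 to 654 (median 356) at 6 d and 1.07 to 104.003 (median 15.4) at 10 d. In ISF ELANE was 13.6 to 642 GeTMM (median 218) at 96 h, 0 to 98.8 (median 26.1) at 6 d and 0.241 to 7.37 (median 3.96) at 10 d. The lowest ISF library at 6 d, that of Dealings, held no ELANE read, and the SF library of the same horse, at 14.9 GeTMM, was the single SF library inside the ISF range. ELANE was lower in ISF in 8 of 8 horses at 6 d, with a log2 fold change of -3.98 ± 0.73 (adjusted p = 1.93e-05).

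MPO was 149 to 548 GeTMM (median 408) at 48 h, 81.01 to 637 (median 376) at 96 h, 13.5 to 405 (median 154) at 6 d and 0.0591 to 129 (median 18.4) at 10 d in SF. In ISF MPO was 221 to 1044 GeTMM (median 724) at 48 h, 29.4 to 317 (median 132) at 96 h, 0.158 to 46.3 (median 18.1) at 6 d and 0.0708 to 19.7 (median 8.09) at 10 d. Its ISF median lay above the SF median at 48 h and below it at each later time. At 6 d the difference was -3.12 ± 0.66 (adjusted p = 1.81e-04), lower in 8 of 8 horses. AZU1 was 196 to 1099 GeTMM (median 742) at 48 h, 173 to 1245 (median 849.8) at 96 h, 22.03 to 1037 (median 478) at 6 d and 0.0646 to 178 (median 31.9) at 10 d in SF. In ISF AZU1 was 352 to 2126 GeTMM (median 1098) at 48 h, 54.4 to 847 (median 304) at 96 h, 0.148 to 111 (median 28.1) at 6 d and 0 to 19.7 (median 4.26) at 10 d. The medians of AZU1 crossed in the same way. Its 6 d difference was -3.93 ± 0.74 (adjusted p = 3.13e-05), also lower in 8 of 8 horses. The ranges of both genes overlapped between fluids, as those of ELANE did. For BPI, at 1.10 to 216 GeTMM (median 52.8) in SF and 0.0493 to 185 GeTMM (median 11.5) in ISF, the 6 d difference of -1.47 ± 0.92 did not pass (adjusted p = 0.235), with 7 of 8 horses lower.

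The gap opened between 48 h and 6 d. At 48 h the differences of ELANE, MPO and AZU1 were 0.29, 0.69 and 0.60 (adjusted p = 0.929, 0.723 and 0.807), and each gene was higher in ISF in 6 of 7 horses. The change of the fluid difference from 48 h to 6 d was tested as an interaction and was -4.27 ± 1.06 for ELANE (adjusted p = 0.00860), -3.81 ± 0.96 for MPO (adjusted p = 0.00970) and -4.53 ± 1.08 for AZU1 (adjusted p = 0.00603). GFI1 and CEBPD also passed, making 5 of 23 genes against 1.85% of all genes moving that way and 5.38% in all, and 8 of 23 passed with horse as a block, where 4.13% of all genes moved lower. Without Ollie 2 of 23 passed. MPO and CEBPD then stood at -3.66 (adjusted p = 0.0505) and -1.05 (adjusted p = 0.0542). The interaction of GFI1 did not pass without Dreamer, Flash, Lurie, Ollie or RimRun (-1.88 to -1.70, adjusted p = 0.0586 to 0.128). From 48 h to 10 d no gene of the 23 passed the same test, beside 2.99% of all genes and 1.41% moving lower, though 8 had an unadjusted p under 0.05, voom on recovered reads called 0, and 4 passed with horse as a block, where 3.9% of all genes moved lower.

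At 96 h the differences of ELANE, MPO and AZU1 were -1.97, -1.66 and -1.66, lower in 8 of 8 horses each as labelled and in 6 of 6 without Dealings and Dreamer, and did not pass (adjusted p = 0.0697, 0.0954 and 0.146). With horse as a block the adjusted p-values were 0.00667, 0.0103 and 0.0183, and with the block but without the ISF libraries labelled Dealings and Dreamer they were 0.0248, 0.0495 and 0.0580. At 10 d ELANE and AZU1 were still lower in ISF, with log2 fold changes of -2.12 and -2.22 (adjusted p = 0.0424 and 0.0363), in 7 of 7 and 6 of 7 horses. MPO stood at -1.42 (adjusted p = 0.149, 0.0294 with horse as a block). The 10 d difference of ELANE did not pass without Catnip, Flash, Ollie or RimRun (-2.12 to -1.68, adjusted p = 0.0566 to 0.155), nor that of AZU1 without Catnip, Lurie, Ollie or RimRun (-2.24 to -1.80, adjusted p = 0.0770 to 0.168).

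Along ISF, ELANE, MPO and AZU1 fell from 48 to 96 h and again from 96 h to 6 d. The first step was -2.14, -2.42 and -2.13 log2 units (adjusted p = 0.0353, 0.00733 and 0.0399), lower in 7 of 7 horses. Without the 96 h ISF libraries labelled Dealings and Dreamer it was -1.67, -1.86 and -1.61 and none passed (adjusted p = 0.178, 0.0747 and 0.207). Leaving out a horse also lost the call of ELANE without Dreamer, Flash, Lurie, Ollie or RimRun (-2.25 to -1.91, adjusted p = 0.0562 to 0.135), of AZU1 without Dreamer, Flash, Lurie, Ollie or RimRun (-2.24 to -1.87, adjusted p = 0.0693 to 0.157) and of MPO without Dreamer (-2.10, adjusted p = 0.0547). The second step was -3.30, -2.86 and -3.36 (adjusted p = 0.00264, 0.00397 and 0.00262), lower in 8 of 8 horses. In SF the 3 genes passed in neither of these intervals in the fit without the block. From 96 h to 6 d their SF values were nevertheless -1.28, -1.40 and -1.09, lower in 8 of 8 horses each. They fell in SF from 6 to 10 d, with log2 fold changes of -3.90, -3.23 and -3.99, in 7 of 7 horses (adjusted p = 0.00106, 0.00266 and 0.00103). The median horse kept 50.7% of its 0 h ELANE at 96 h in SF and 13.4% in ISF, 22.3% and 2.18% at 6 d, and 0.671% and 0.227% at 10 d. Of the log2 fall of ELANE from 0 h to 10 d in ISF, 12.2% had taken place by 48 h, and of that of LTF 47.4%.

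Over all classes, the steps after 48 h held falls and no rise. From 48 to 96 h 8 of 23 genes fell in ISF and 5 in SF, beside 10.4% and 15.8% of all genes that fell and 19% and 27.3% that passed. From 96 h to 6 d 7 fell in ISF and 2 in SF, beside 3.54% and 1.61% that fell and 6.38% and 2.05% that passed. From 6 to 10 d 12 fell in ISF and 9 in SF, beside 5.44% and 1.59% that fell and 10.5% and 4.78% that passed. At an unadjusted p under 0.05, 1 gene was higher in these intervals, from 6 to 10 d in SF, and voom on recovered reads called 0 higher. With horse as a block 16 genes fell from 96 h to 6 d in ISF, 18 from 6 to 10 d in ISF and 15 from 6 to 10 d in SF, beside 5.68%, 7.58% and 3.88% of all genes that fell in that fit. The 48 to 96 h count in ISF was 3 without the libraries of Dealings and Dreamer, and without 1 horse it was as low as 2, without Dreamer. In ISF the 96 h to 6 d count was 4 without Ollie and 11 without Moon, and the 6 to 10 d count was 6 without Catnip or Lurie and 7 without Moon or Ollie. In SF the 6 to 10 d count was 5 without the 6 d library of Moon or without Dreamer and 4 without Ollie, and the 96 h to 6 d count was 0 without the Moon library. The largest of the 4 log2 steps was the first for 5 of 5 specific granule genes in SF and 4 of 5 in ISF. It was the last for 3 of 4 primary granule genes in SF, but that step, from 6 to 10 d, spans more time than each of the others. Steps were not divided by their length.

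**Figure D3:**
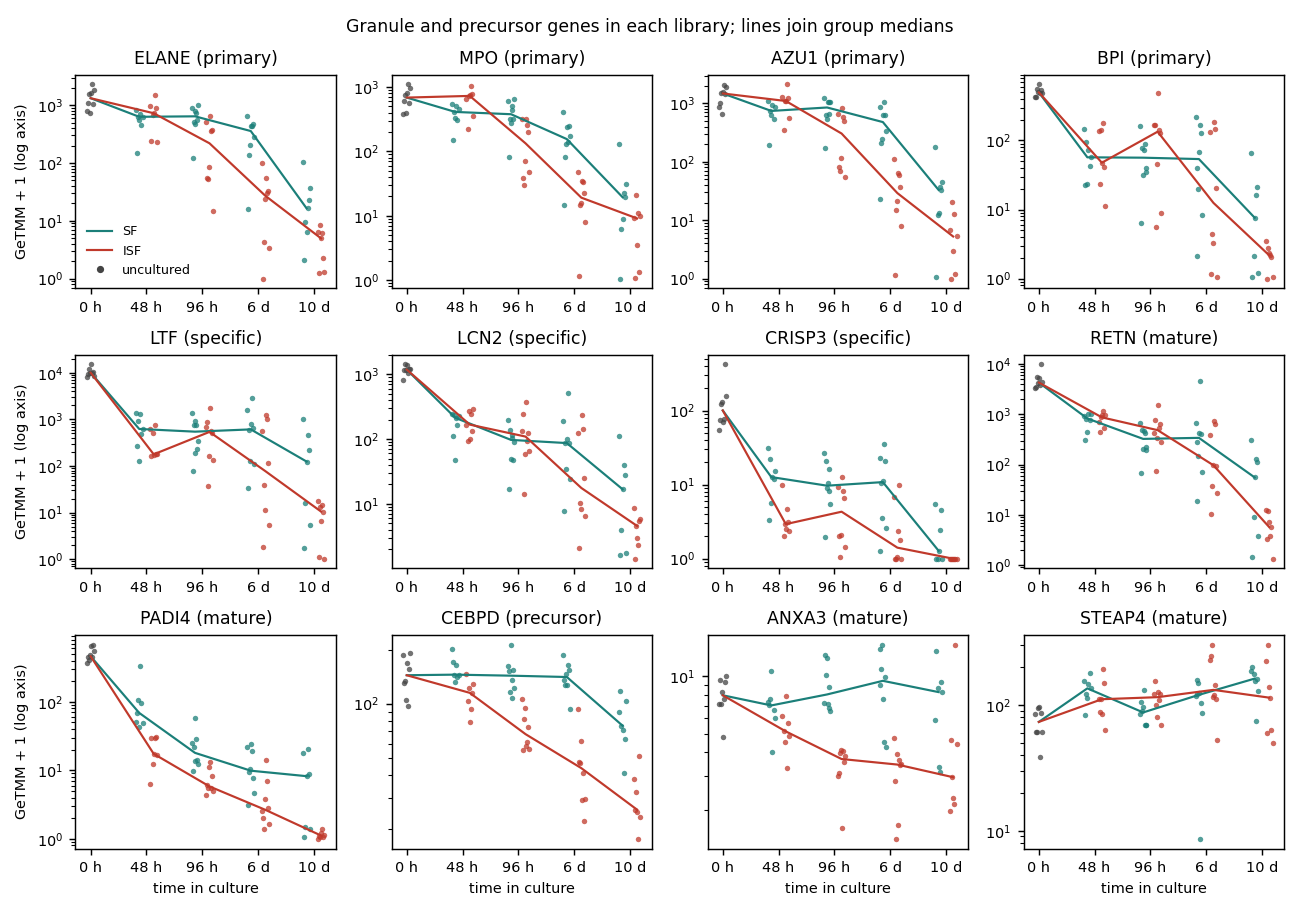
GeTMM + 1 on a log axis in each library (points) of 12 genes, against time in culture, with green for SF, red for ISF, grey for uncultured cells and lines through group medians. ELANE, MPO and AZU1 separate by fluid after 48 h, LTF and LCN2 fall early in both fluids, the CEBPD medians stay near 144 in SF up to 6 d while they decline in ISF, and the STEAP4 medians lie above the 0 h median of 72.2 throughout.

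Among precursor genes, 4 of 5 were lower in ISF at 6 d and 3 of 5 at 10 d, beside 13.6% and 10.8% of all genes. CEBPD, which encodes a C/EBP transcription factor, held 96.3 to 191 GeTMM (median 143) at 0 h. It was 132 to 200.2 GeTMM (median 144) at 48 h, 106 to 213 (median 142) at 96 h, 92.8 to 185 (median 139.8) at 6 d and 40.2 to 117 (median 74.4) at 10 d in SF. In ISF CEBPD was 78.3 to 146 GeTMM (median 114) at 48 h, 54.3 to 105 (median 66.6) at 96 h, 21.2 to 92.7 (median 42.7) at 6 d and 16.7 to 50.4 (median 24.7) at 10 d. At 96 h and at 6 d every ISF library lay below every SF library, a split found in 0.824% of all genes at 96 h and 1.24% at 6 d. The difference was -0.99 ± 0.20 at 96 h (adjusted p = 4.60e-04), -1.72 ± 0.20 at 6 d (adjusted p = 1.24e-09) and -1.40 ± 0.22 at 10 d (adjusted p = 2.11e-06), lower in every horse at each of these times. At 48 h it was -0.49, lower in 7 of 7 horses, and did not pass. From 0 to 48 h CEBPD did not pass in either fluid, and it fell in SF from 6 to 10 d (-0.86, adjusted p = 0.0111), though not without Moon or Ollie (-0.80 to -0.68, adjusted p = 0.0502 to 0.0812). CEBPD thus departed from its class. In SF at 48 h the median horse kept 108% of its 0 h CEBPD, against 14.8% to 28.4% for the other precursor genes.

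GFI1, a repressor that keeps granulocyte precursors on course, held 30.6 to 55.7 GeTMM (median 44.1) at 0 h. It was 5.94 to 32.7 GeTMM (median 14.4) at 48 h, 4.48 to 33.4 (median 13.2) at 96 h, 2.73 to 27.1 (median 10.8) at 6 d and 2.16 to 11.8 (median 2.58) at 10 d in SF. In ISF GFI1 was 6.09 to 23.3 GeTMM (median 13.6) at 48 h, 2.61 to 21.5 (median 6.66) at 96 h, 0.202 to 7.69 (median 1.46) at 6 d and 0.370 to 1.47 (median 0.950) at 10 d. At 10 d all 7 ISF libraries lay below all 7 SF libraries, a split found in 2.69% of all genes. The difference was -1.82 ± 0.37 at 6 d (adjusted p = 1.07e-04, lower in 8 of 8 horses) and -1.25 ± 0.40 at 10 d (adjusted p = 0.0178, lower in 7 of 7), and the 10 d difference did not pass without Catnip (-0.95, adjusted p = 0.0820). CEBPE, the C/EBP factor required for specific granules, held 178 to 379.6 GeTMM (median 259.9) at 0 h, 16.7 to 104.22 GeTMM (median 51.4) at 48 h, 8.73 to 114 (median 40.2) at 96 h, 1.83 to 342 (median 46.8) at 6 d and 0.115 to 31.8 (median 3.77) at 10 d in SF. In ISF CEBPE was 17.3 to 109.7 GeTMM (median 49.1) at 48 h, 6.53 to 158 (median 46.8) at 96 h, 0.726 to 49.3 (median 4.49) at 6 d and 0.344 to 3.48 (median 1.79) at 10 d. At 6 d it was lower in ISF in 8 of 8 horses, with a difference of -2.03 ± 0.67 (adjusted p = 0.0156), with overlapping ranges. Its highest SF value was that of the Moon library, and without it the difference was -1.57 (adjusted p = 0.0545). It also did not pass without Dreamer or Ollie (-1.82 to -1.81, adjusted p = 0.0618 to 0.0717).

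SERPINB1 was 264 to 906 GeTMM (median 528) at 48 h, 263 to 789 (median 449.8) at 96 h, 212 to 947 (median 436) at 6 d and 127 to 388 (median 215) at 10 d in SF. In ISF SERPINB1 was 347 to 909.7 GeTMM (median 556) at 48 h, 176 to 1335 (median 487) at 96 h, 99.5 to 569 (median 169) at 6 d and 61.5 to 140.2 (median 93.5) at 10 d. The fluids had similar medians up to 96 h and lay apart from 6 d. It was lower in ISF at 6 d in 7 of 8 horses (-1.03 ± 0.33, adjusted p = 0.0129) and at 10 d in 7 of 7 (-1.13 ± 0.35, adjusted p = 0.0156). These calls did not pass without Ollie (-0.92, adjusted p = 0.0607) at 6 d, and without Catnip or Ollie (-1.06 to -0.87, adjusted p = 0.0581 to 0.0957) at 10 d. MS4A3, a membrane protein of early granulocyte precursors, stood at -1.32 at 6 d (adjusted p = 0.199). From 0 to 48 h CEBPE, GFI1, MS4A3 and SERPINB1 fell in both fluids, with log2 fold changes of -2.80 to -1.61, in 7 of 7 horses each.

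Of the specific granule genes, LTF and CRISP3 were lower in ISF at 6 d and LTF at 10 d. LTF was lower at 6 d in 7 of 8 horses, with overlapping ranges, and the difference was -2.60 ± 1.03 (adjusted p = 0.0483). Without the SF library of Moon, the highest at 2844 GeTMM, it was -2.20 (adjusted p = 0.0990), and it did not pass without Catnip, Dealings, Dreamer, Flash, Ollie or RimRun (-2.75 to -2.35, adjusted p = 0.0509 to 0.120). At 10 d the difference was -3.26 ± 1.10 (adjusted p = 0.0275), lower in 7 of 7 horses, and it did not pass without Catnip, Lurie or Ollie (-3.09 to -2.83, adjusted p = 0.0720 to 0.0923). CRISP3 held 53.9 to 421 GeTMM (median 99.5) at 0 h, 2.36 to 30.6 GeTMM (median 11.7) at 48 h, 0.947 to 25.8 (median 8.69) at 96 h, 0.267 to 34.8 (median 9.83) at 6 d and 0 to 4.51 (median 0.277) at 10 d in SF. In ISF CRISP3 was 1.06 to 8.79 GeTMM (median 1.93) at 48 h, 0.0630 to 11.5 (median 3.31) at 96 h, 0 to 8.96 (median 0.410) at 6 d and 0 in every library at 10 d. No CRISP3 read was found in any of the 7 ISF libraries at 10 d or in 3 of the 7 SF libraries. It was lower in ISF at 6 d in 8 of 8 horses (-2.03 ± 0.57, adjusted p = 0.00442). At 48 h and 96 h its differences were -1.79 (adjusted p = 0.115, 0.0150 with horse as a block) and -1.36 (adjusted p = 0.119, 0.0238 with horse as a block).

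LCN2, OLFM4 and TCN1 passed at none of the 4 times in the fit without the block. LCN2 stood at -1.49 at 6 d (adjusted p = 0.123, 0.0499 with horse as a block). OLFM4 was 17.1 to 1236 GeTMM (median 289) in ISF and 13.1 to 280.2 GeTMM (median 92.5) in SF at 96 h, a difference of 1.60 ± 0.91 (adjusted p = 0.281). By 10 d its difference was -2.55 ± 0.97 (adjusted p = 0.0505, 0.0128 with horse as a block), lower in 7 of 7 horses. The differences of TCN1 lay between -1.10 and 0.22.

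PADI4, the enzyme that turns histone arginine into citrulline, was the single gene of the 23 that passed as lower in ISF at all 4 times. It held 363 to 684 GeTMM (median 459.8) at 0 h, 42.6 to 333 GeTMM (median 67.8) at 48 h, 8.85 to 57.6 (median 16.97) at 96 h, 2.07 to 22.9 (median 8.87) at 6 d and 0.0484 to 19.7 (median 7.21) at 10 d in SF. In ISF PADI4 was 5.27 to 29.7 GeTMM (median 16.4) at 48 h, 3.40 to 12.1 (median 4.81) at 96 h, 0.403 to 13.2 (median 1.65) at 6 d and 0 to 0.381 (median 0.116) at 10 d. At 48 h every ISF library lay below every SF library, a split found in 0.268% of all genes. The differences were -2.19 ± 0.51 at 48 h (adjusted p = 0.00909), -1.51 ± 0.47 at 96 h (adjusted p = 0.0286), -1.64 ± 0.47 at 6 d (adjusted p = 0.00581) and -2.09 ± 0.51 at 10 d (adjusted p = 0.00168). PADI4 was lower in ISF in every horse up to 6 d and in 6 of 7 at 10 d, with Dealings as the exception. Without the ISF libraries labelled Dealings and Dreamer the 96 h difference was -1.43 (adjusted p = 0.0866). The 48 h call did not pass without Dreamer (-2.04, adjusted p = 0.0822), nor the 96 h call without Catnip, Dreamer or Ollie (-1.61 to -1.36, adjusted p = 0.0559 to 0.0861). Levels near 1 GeTMM, as in ISF at 10 d, make the fitted fold smaller than the ratio of the levels because of the added pseudocount.

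MMP25 (a membrane-bound metalloproteinase), ALPL (alkaline phosphatase, found in secretory vesicles) and PROK2 (a chemokine-like peptide of neutrophils) fell between 48 and 96 h in both fluids. In SF the median horse kept 62.2%, 65.2% and 68.3% of its 0 h level of these genes at 48 h, and 10.04%, 13.8% and 22.1% at 96 h. In ISF it kept 38.1%, 24.5% and 69.8% at 48 h, and 7.96%, 7.72% and 33.1% at 96 h. From 0 to 48 h MMP25 and ALPL fell in ISF, with log2 fold changes of -1.35 and -1.77 (adjusted p = 0.00137 and 0.00105). In SF their values were -0.77 (adjusted p = 0.0770, 0.0341 with horse as a block) and -0.63 (adjusted p = 0.280), lower in 6 of 7 and 7 of 7 horses. The direct ISF minus SF differences at 48 h were -0.58 and -1.14, lower in 6 of 7 and 7 of 7 horses, and did not pass. The largest of the 4 log2 steps was that from 48 to 96 h for all 3 genes in SF and for MMP25 in ISF. For ALPL and PROK2 in ISF it was that from 6 to 10 d, which spans more time than each of the others. Steps were not divided by their length, so the largest need not be the fastest. The change from 48 to 96 h was -2.73, -2.37 and -1.76 log2 units in SF (adjusted p = 2.48e-08, 5.65e-05 and 1.80e-04) and -2.21, -2.01 and -1.17 in ISF (adjusted p = 6.18e-06, 9.71e-04 and 0.0186). It was a fall in 7 of 7 horses, except for PROK2 in ISF, with 6 of 7 as labelled and 5 of 5 without Dealings and Dreamer. The horse with a higher value was Dealings, whose 96 h ISF library (19.4 GeTMM) and that of Dreamer (2.92 GeTMM) resembled the other horse, and at 48 h these horses held 10.3 and 21.5 GeTMM. With these 2 libraries exchanged it would be a fall in both. The call of PROK2 in ISF did not pass without Dreamer (-0.98, adjusted p = 0.114).

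MMP25 held 258 to 434 GeTMM (median 313) at 0 h, 113 to 266 GeTMM (median 187) at 48 h, 11.6 to 47.8 (median 32.00) at 96 h, 4.15 to 29.4 (median 13.97) at 6 d and 1.91 to 38.3 (median 11.96) at 10 d in SF. In ISF MMP25 was 81.4 to 195 GeTMM (median 126) at 48 h, 13.7 to 53.1 (median 29.96) at 96 h, 5.61 to 40.1 (median 12.02) at 6 d and 1.68 to 3.79 (median 3.18) at 10 d. The medians of MMP25 in the fluids were close at 96 h and 6 d and apart at 10 d. ALPL held 412 to 781 GeTMM (median 517) at 0 h, 211 to 509.6 GeTMM (median 325) at 48 h, 18.9 to 111 (median 82.3) at 96 h, 2.88 to 41.9 (median 24.8) at 6 d and 0.772 to 38.04 (median 12.97) at 10 d in SF. In ISF ALPL was 101 to 287 GeTMM (median 132) at 48 h, 16.8 to 81.4 (median 42.8) at 96 h, 4.13 to 72.6 (median 16.4) at 6 d and 0.244 to 2.32 (median 1.23) at 10 d. The ALPL median was lower in ISF at all 4 times. At 10 d both were lower in ISF, MMP25 with a difference of -1.38 ± 0.38 in 5 of 7 horses (adjusted p = 0.00501) and ALPL with -2.03 ± 0.48 in 7 of 7 (adjusted p = 0.00128), with overlapping ranges. RETN was 311 to 1010.4 GeTMM (median 824) at 48 h, 67.4 to 669 (median 323) at 96 h, 17.5 to 4613 (median 339) at 6 d and 0.425 to 311 (median 54.4) at 10 d in SF. In ISF RETN was 440.2 to 1178 GeTMM (median 869) at 48 h, 74.8 to 1531 (median 483) at 96 h, 9.51 to 747 (median 95.9) at 6 d and 0.339 to 11.3 (median 4.70) at 10 d. The RETN medians were higher in ISF up to 96 h, without passing the test, and lower from 6 d on. At 10 d it was lower in ISF in 5 of 7 horses, with a difference of -2.40 ± 0.85 (adjusted p = 0.0360), and the call did not pass without Catnip, Lurie, Moon or Ollie (-2.30 to -1.96, adjusted p = 0.0845 to 0.136). RETN at 6 d reached 4613 GeTMM in the SF library of Moon, above the 0 h value of that horse, 3859.9 GeTMM, while the next SF library held 679.7 GeTMM.

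MGAM, a maltase-glucoamylase, went from 91.2 to 128 GeTMM (median 114) at 0 h to 1.78 to 31.2 GeTMM (median 11.6) in SF and 1.61 to 7.19 GeTMM (median 4.12) in ISF by 48 h, changes of -3.31 and -4.49 (adjusted p = 4.32e-09 and 2.18e-13, lower in 7 of 7 horses each). At 48 h it was lower in ISF than in SF in 7 of 7 horses, -1.17 (adjusted p = 0.191, 0.0422 with horse as a block). ANXA3 was low in all groups and differed by fluid from 96 h on. It was 3.03 to 9.63 GeTMM (median 6.02) at 48 h, 5.55 to 11.9 (median 7.01) at 96 h, 3.27 to 13.5 (median 8.44) at 6 d and 2.17 to 12.5 (median 7.24) at 10 d in SF. In ISF ANXA3 was 2.31 to 6.84 GeTMM (median 4.14) at 48 h, 0.610 to 3.10 (median 2.69) at 96 h, 0.412 to 3.76 (median 2.45) at 6 d and 0.977 to 13.6 (median 1.96) at 10 d. The SF medians lay around the 0 h median of 6.93 GeTMM, and the ISF medians below it. At 96 h the fluids did not overlap, as for 0.824% of all genes, and the difference was -1.41 ± 0.29 (adjusted p = 5.13e-04) at 96 h and -1.55 ± 0.29 (adjusted p = 3.14e-05) at 6 d, lower in 8 of 8 horses at both. At 10 d it was -0.86 ± 0.31 (adjusted p = 0.0399), lower in 6 of 7 horses, and did not pass without Catnip, Dealings, Dreamer or RimRun (-0.85 to -0.74, adjusted p = 0.0815 to 0.151).

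STEAP4, a metalloreductase of the cell surface, was the only gene of the 23 that rose in any interval. In SF it went from 37.6 to 94.6 GeTMM (median 72.2) at 0 h to 82.7 to 179 GeTMM (median 134) at 48 h (0.89 ± 0.36, adjusted p = 0.0392), higher in 7 of 7 horses, though the call did not pass without Catnip, Dreamer, Lurie, Ollie or RimRun (0.86 to 0.93, adjusted p = 0.0619 to 0.0892). In ISF the change was 0.63 ± 0.36 (adjusted p = 0.147). Its fluid differences lay between -0.42 and 0.74 and did not pass.

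**Figure D4:**
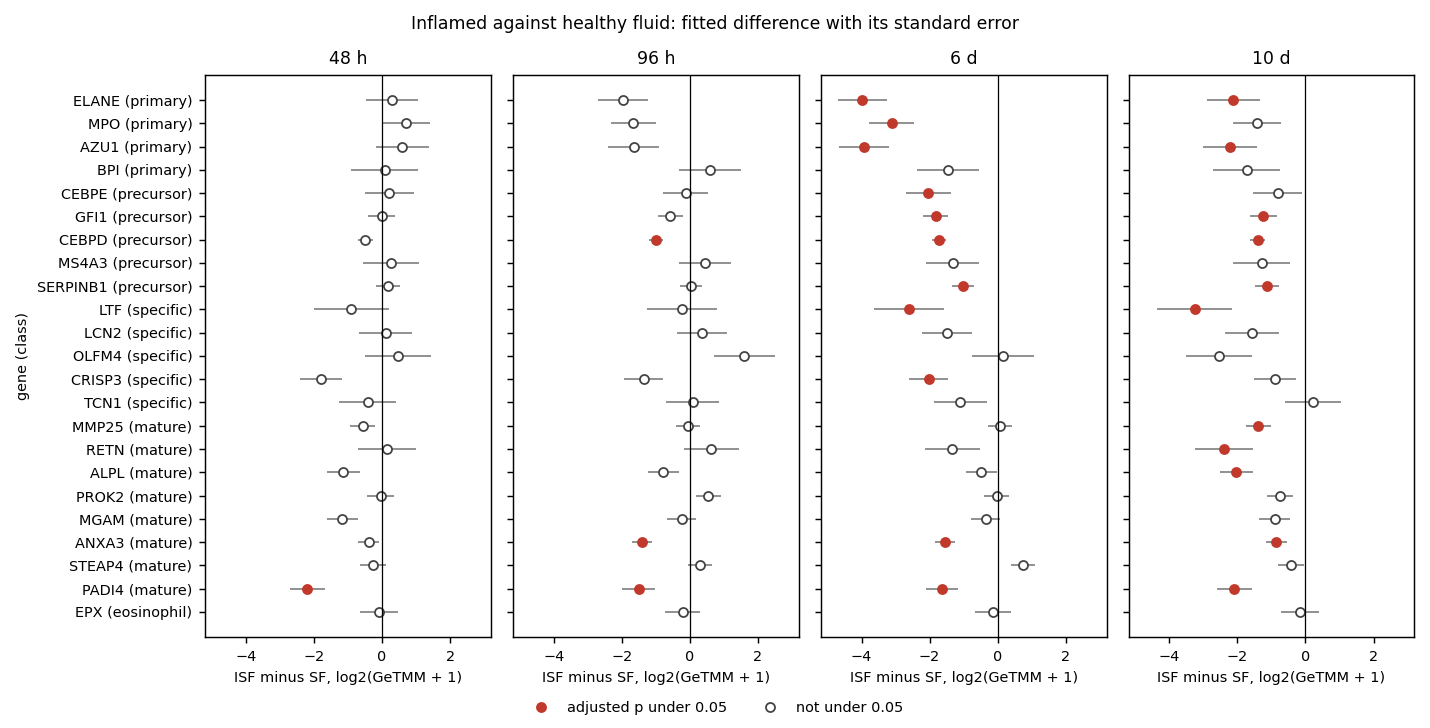
Fitted ISF minus SF difference in log2(GeTMM + 1) of each of the 23 genes (vertical axis) with its standard error (bars) at 48 h, 96 h, 6 d and 10 d. Filled red points have an adjusted p under 0.05 and all lie left of 0, with 1, 3, 11 and 11 of them at the 4 times.

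EPX, the peroxidase of eosinophil granules and a close relative of MPO, was measured in marrow and nearly gone at 48 h in most horses. It was 0.0303 to 4.99 GeTMM (median 0.233) at 48 h, 0.0742 to 14.7 (median 0.247) at 96 h, 0 to 15.8 (median 0.0954) at 6 d and 0.0707 to 11.5 (median 0.701) at 10 d in SF. In ISF EPX was 0.135 to 2.65 GeTMM (median 0.200) at 48 h, 0.0530 to 2.81 (median 0.339) at 96 h, 0.0452 to 2.29 (median 0.281) at 6 d and 0.166 to 2.99 (median 0.765) at 10 d. The change from 0 to 48 h was -3.34 in SF and -3.42 in ISF (adjusted p = 5.95e-07 and 2.58e-07), lower in 7 of 7 horses each, and no later interval and no fluid difference passed. The eosinophil receptor genes IL5RA and CCR3 summed to 5.98 to 16.01 GeTMM (median 11.6) at 0 h, 0.319 to 1.84 GeTMM (median 0.697) at 48 h in SF and 0.0551 to 0.873 GeTMM (median 0.209) in ISF.

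Of 17 further neutrophil and myeloid genes, 11 could be tested. None passed between fluids at 48 h in limma, where 2 had an unadjusted p under 0.05, 1 was lower in ISF at 96 h, and 3 were lower and 1 higher at 6 d and again at 10 d. The 4 of 11 that passed stand beside 30.2% of all genes at 6 d and 20.8% at 10 d, so the share at 6 d was near the background. MMP9, a gelatinase of late granules that macrophages also make, was the one that was higher, by 1.57 at 6 d and 2.58 at 10 d (adjusted p = 0.00197 and 7.27e-06). It held 971 to 9859 GeTMM (median 3974) in ISF and 186 to 1371 GeTMM (median 639) in SF at 10 d, beside 1677 to 2574 GeTMM (median 2119) at 0 h. PLBD1, a phospholipase B-like protein of granules, stood at -0.99 at 96 h, -1.48 at 6 d and -1.56 at 10 d (adjusted p = 0.0189, 6.63e-05 and 1.46e-04). LYZ (lysozyme) stood at -2.08 and -2.81 at 6 and 10 d (adjusted p = 0.0391 and 0.0123), and S100A12, a calcium-binding alarmin, at -1.90 and -3.20 (adjusted p = 0.0967 and 0.0103). The third lower gene at 6 d was MYB, a factor of early progenitors (-1.22, adjusted p = 0.0205), named after its value was seen. At 48 h and 96 h SLPI, a secreted inhibitor of elastase, stood at 1.22 and 0.92 (adjusted p = 0.0741 and 0.0811).

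Markers of other cells moved with the fluid at the same times. All 5 T cell genes (CD3D, CD3E, CD3G, CD2 and LCK) and all 3 B cell genes tested were lower in ISF at 6 d and 10 d, beside 13.6% and 10.8% of all genes. The T cell sum at 6 d was 28.6 to 228 GeTMM (median 129) in SF and 8.57 to 47.3 GeTMM (median 32.4) in ISF, and the B cell sum 11.1 to 108 GeTMM (median 52.97) and 1.22 to 27.8 GeTMM (median 9.53). All 5 stromal genes were lower in ISF at 10 d, where their sum was 0.406 to 4038 GeTMM (median 27.6) in SF and 0.123 to 49.2 GeTMM (median 0.526) in ISF. Cell cycle genes were higher in ISF for 2 of 4 at 96 h and 3 of 4 at 6 d. At these times 10.5% and 30.2% of all genes passed in either direction, of which the genes lower in ISF made up 4.3% and 13.6% of all genes. None of the 4 cell cycle genes passed at 10 d, also at an unadjusted p under 0.05. The macrophage sum at 6 d was 10788 to 31736 GeTMM (median 18203) in SF and 10068 to 14012 GeTMM (median 12288) in ISF, with MSR1 higher and GPNMB lower in ISF. Both table entries for the monocyte gene CD14 were higher in ISF from 96 h on, while CSF1R, the other monocyte gene, passed at none of these times. Of all genes, 10.5%, 30.2% and 20.8% passed at 96 h, 6 d and 10 d. Erythroid genes, 76.2 to 1230.3 GeTMM (median 434) at 0 h, were at most 11.99 GeTMM from 96 h on, and basophil and mast cell genes at most 0.805 GeTMM in any culture. The part of these cells in the granule gene differences was not tested.

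The same horses stood at the ends of the range for many of these genes. Dealings was lowest in SF for 13 of the 23 genes at 48 h, 19 at 96 h, 19 at 6 d and 15 at 10 d, and in ISF for 12 at 48 h, 14 at 6 d and 13 at 10 d, against 4 at 0 h. In ISF at 96 h the lowest library for 15 genes was the one labelled Dreamer, and the one labelled Dealings was lowest for 1. Catnip was highest in SF for 14, 13, 11 and 19 genes at the 4 times, while at 0 h it was highest for 0 and lowest for 6. Lurie was highest in ISF for 13, 15 and 12 genes at 48 h, 96 h and 6 d.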

How the data were processed

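RNA of 68 libraries was measured by stranded paired-end sequencing. Per the labels and the study's methods, reads were trimmed, aligned with STAR 2.7.2a to EquCab3.0 (Ensembl annotation) and counted per gene. The authors deposited GeTMM values, which are RPKM values scaled between libraries with edgeR factors. Gene lengths and whole reads were recovered from these values for all genes above 0 in 7 or more libraries (100% of values within 0.02 reads), which gave the depth. Voom on these reads called 174, 1532, 4287 and 2920 of all genes between fluids at 48 h, 96 h, 6 d and 10 d, and limma on the deposited values called 245, 1524, 4405 and 3027.

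The 14570 genes that reached 0.5 GeTMM in 7 libraries or more were tested with limma 3.58.1 (trend) on log2(GeTMM + 1), in 1 fit of 9 groups without a horse term. Tests were two-sided, with Benjamini-Hochberg adjustment over all genes tested and a threshold of 0.05. The lists and members were chosen with earlier results of these data known. Values were given in every group for genes that passed between fluids at 1 or more times with a group mean of at least 5 GeTMM, and for the highest gene of each class at 0 h. The others were given by range, count or value. Samples were paired by animal, which the labels name. Correlations of deviations averaged 0.20 to 0.54 for the same horse and -0.08 to -0.03 for other horses. All 224 pairs of libraries within groups differed by more than sampling noise (chi-square per degree of freedom at least 41.0). The script was tested on simulated data. Alternatives were another pseudocount, no filter, horse as a block, only the groups compared, library weights, voom on the recovered reads, median-ratio scaling, leaving out each horse, and, chosen after seeing the data, the libraries that stood apart with the block and the primary mean without BPI. R 4.3.3 was used. No sequence table came with the files used here, so no sequences are shown.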

Additional observations from a re-analysis of the deposited data

Results flagged for a closer look

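In 15 genes and 9 groups, 135 sets of libraries, 21 had an end library that stood apart from the others on the log2(GeTMM + 1) scale by Dixon's 95% limit. Chance alone gives about 1 in 20 for a single set, but these sets are not independent, since the genes share libraries. Of these, 8 were low values of Dealings in SF. ELANE in Dealings was 146 GeTMM at 48 h (next library 459), 122 at 96 h (next 474) and 14.9 at 6 d (next 134). AZU1 in Dealings was 196, 173 and 22.03 GeTMM at the same times, MPO was 81.01 at 96 h and ALPL 18.9 at 96 h. At 0 h the same horse held 1080.0 GeTMM of ELANE, within the range of the others.

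EPX was highest in Catnip, beyond the same limit, in 7 of the 8 culture groups, all but ISF at 10 d. It measured 4.99 GeTMM at 48 h, 14.7 at 96 h, 15.8 at 6 d and 11.5 at 10 d in SF, where the next libraries held 0.519, 0.559, 0.644 and 1.81 GeTMM, and 2.65, 2.81 and 2.29 GeTMM in ISF at 48 h, 96 h and 6 d. At 0 h Catnip held 41.6 GeTMM, less than Moon at 77.2. GFI1 in SF at 10 d was also highest in Catnip, at 11.8 GeTMM.

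The other single libraries were MMP25 in ISF at 6 d in Lurie (40.1 GeTMM, highest), RETN at 0 h in Ollie (9853 GeTMM, highest) and ANXA3 at 0 h in Lurie (3.83 GeTMM, lowest), in ISF at 96 h in Lurie (0.610 GeTMM, lowest) and in ISF at 10 d in Ollie (13.6 GeTMM, highest).

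The difference between fluids changed from 48 h to 6 d by the interaction test in limma for 5 genes, ELANE (-4.27, adjusted p = 0.00860), MPO (-3.81, adjusted p = 0.00970), AZU1 (-4.53, adjusted p = 0.00603), GFI1 (-1.80, adjusted p = 0.0358) and CEBPD (-1.23, adjusted p = 0.00696). Over all alternatives tried these interactions ranged over adjusted p of 1.77e-04 to 0.0490 for ELANE, 1.22e-04 to 0.0505 for MPO and 3.27e-04 to 0.128 for GFI1. None of the 23 genes passed the same test from 48 h to 10 d in the fit without the block, where 2401 of all genes had an unadjusted p under 0.05, and 4 passed with the block.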

How the results depend on the processing

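Of the calls of single genes, 0 were lost with horse as a replicate block or with median-ratio scaling, 2 with library weights, 11 with a pseudocount of 0.1, 14 with voom on recovered reads, 19 with no filter on low values and 33 with only the groups compared, and no called direction was turned. Of 832 repeats without 1 horse, 137 lost the call. Omitting the 96 h ISF libraries labelled Dealings and Dreamer lost 7 calls (1 with the block) and leaving out the SF library of Moon at 6 d lost 8. The MPO change from 0 to 48 h in ISF, not called, ranged from -0.329 to 0.0534 without 1 horse, above 0 without Dealings or RimRun.

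Counts of the 23 genes that passed moved by over 1.5 times as follows, where the cause was not tested. At 48 h between fluids (1 gene) the count was 0 with a pseudocount of 0.1, 3 with the block, 2 with only the groups compared and 4 with library weights or with the block without the ISF libraries labelled Dealings and Dreamer. At 96 h (3) it was 7 with the block or library weights and 5 with the block without these libraries. With only the groups compared, which fits fewer libraries, it was 7 at 6 d (11), 5 at 10 d (11), 2 from 96 h to 6 d in ISF (7), 0 in SF (2), 6 from 6 to 10 d in ISF (12), 0 in SF (9) and 1 for the fluid difference from 48 h to 10 d (0). At 10 d it was 7 with no filter and 6 with voom. From 48 to 96 h in ISF (8) it was 4 with the pseudocount, 5 with no filter and 3 without the ISF libraries labelled Dealings and Dreamer. From 96 h to 6 d in ISF it was 16 with the block, with or without these libraries, and 15 with library weights, and in SF 0 with the pseudocount, no filter or without the Moon library. From 6 to 10 d it was 6 with voom in ISF, and in SF 15 with the block, with or without these libraries, and 5 without the Moon library. The fluid difference from 48 h to 6 d (5) gave 8 with the block, with or without them, and that from 48 h to 10 d 4 with the block, 5 with the block without them and 2 with library weights.

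Without each horse in turn the counts ran 0 to 1, 2 to 6, 8 to 11 and 4 to 12 between fluids at 48 h, 96 h, 6 d and 10 d. From 0 to 48 h they ran 15 to 15 in ISF and 13 to 15 in SF, from 48 to 96 h 2 to 8 and 5 to 5, from 96 h to 6 d 4 to 11 and 0 to 2, and from 6 to 10 d 6 to 14 and 4 to 11. For the fluid difference they ran 2 to 6 up to 6 d and 0 to 1 up to 10 d. The early minus late medians moved by less than 1 SD under each alternative except without BPI, which gave 2.04 at 48 h and 3.07 at 96 h in SF and 3.02 at 48 h in ISF.

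Levels of a few reads limit the late groups: 1 read on a gene of 1 kilobase is 0.0337 to 0.0979 GeTMM, and at 10 d in ISF CRISP3 had none.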
